A study of Mus musculus with 36 samples.

Results

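The loci of interleukin-10 and of the 2 chains of its receptor were examined by chromatin accessibility in mouse dendritic cells. The members are the peaks of the deposited count table that overlap Il10, Il10ra or Il10rb or the 25 kb to either side of these genes (mm10). There are 64 such peaks among 119751: 28 at Il10, 21 at Il10ra and 15 at Il10rb. All 64 passed the filter on low counts. At the edges of the Il10 window, the outermost peaks inside averaged 10.5 and 4.55 CPM (read counts scaled to library size), and the nearest peaks outside, 5171 bp before and 2424 bp after it, 0.781 and 0.956.

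Open chromatin was mapped by ATAC-seq, which reads where a transposase can cut accessible DNA, in bone marrow-derived dendritic cells. These cells were grown with GM-CSF (15 ng/mL) from the marrow of female C57BL/6 mice aged 6 to 8 weeks, and 50000 cells were lysed per library. Cells were exposed for 6 h to Zymosan depleted (Z), 3',3'-cGAMP (cG), SeV (S), HMW (H), LPS (L) or PAM (P), named as in the labels. Ctrl received no ligand. The groups are Ctrl, the 6 single ligands, 8 pairs (PL, PH, LH, PS, PcG, ScG, ZS, ZcG) and 3 triplets (PLH, PScG, ZScG). A combination is named by the letters of its ligands. All 18 groups share strain, cell type and growth in GM-CSF, and each has 2 libraries. The labels do not say whether the 2 libraries came from separate cultures or animals, so p-values measure only the spread between these libraries, which may be technical. Accessibility was measured, and no RNA or protein level is given here.

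IL-10 is a cytokine that restrains inflammation, and dendritic cells and macrophages both make it and respond to it. It binds a receptor of the ligand-binding chain IL-10Rα (Il10ra) and the shared chain IL-10Rβ (Il10rb), which the receptors for IL-22 and the lambda interferons also use. The receptor signals through the kinases JAK1 and TYK2 to the transcription factor STAT3, which induces genes such as Socs3. Transcription of Il10 in myeloid cells is known to depend on enhancers far from the gene as well as on its promoter.

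Libraries held 19097027 to 39977088 counts, and 8181254 to 21985891 of these lay outside the single peak that spans the mitochondrial genome. That peak held 44.1% to 63.1% of the counts and was left out. Its mean share was 58.3% to 63.0% in 5 groups (Ctrl, Z, ZcG, ScG and ZScG) and 44.4% to 54.5% in the other 13. This step holds for group means. The ZS libraries were at 58.1% and 51.0%, and the lowest library of the 5 groups, ScG replicate 1, at 57.3%. The labels give no batch. For these 13 groups the step in mitochondrial share cannot be told apart from stimulation in a comparison with Ctrl. The comparisons of ZScG, ScG, ZcG and Z with Ctrl, and of PL, PH, LH, PS and PcG with their single ligands, stay on one side of it. All 16 dendritic cell and macrophage marker genes had a peak at the gene, with a summed level of 286 to 367 CPM over the groups. Over the 17 comparisons with Ctrl 7 of them were called only higher, 5 only lower, 2 in both directions and 2 never. Among them, Csf2ra was higher in 13 stimulations and Adgre1 in 11, and Ciita was lower in 14, Irf4 in 12 and Lyz2 in 9. At Cd3e, Cd3g, Cd8a, Lck, Bcl11b, Cd79a, Pax5, Siglech, Elane, Mpo, Ly6g, Gata1 and Col3a1, which mark other cells, there was no peak. The marker peaks present summed to 4.89 to 14.3 CPM for T cells (2 of 7 genes), 25.0 to 39.9 for B and plasmacytoid cells (3 genes), 11.0 to 29.5 for neutrophils and progenitors (3 of 6), 10.3 to 19.9 for erythroid cells (2 of 3) and 6.21 to 12.4 for stroma (2 of 3). The neutrophil and progenitor sum was 27.7 CPM in Ctrl, with S100a8 lower in 13 stimulations and Cebpe in 14. The B cell marker Ms4a1 was higher in 13. The part of these cells in the results was not tested.

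Distances are given from a peak's centre to the annotated start of its gene, in the direction of transcription, so that negative distances lie before the gene. A peak is called higher or lower when its Benjamini-Hochberg adjusted p-value is under 0.05 in edgeR's quasi-likelihood test, fitted on all 119464 tested peaks. All comparisons with Ctrl share the 2 Ctrl libraries, so their calls do not support each other. Il10 lies at chr1:131019845-131024970, Il10ra at chr9:45253837-45269149 and Il10rb at chr16:91406157-91425834. Il10 has no other gene within its window, and Mapkapk2, which encodes a kinase that stabilises cytokine mRNAs, is its nearest neighbour downstream. The window of Il10ra holds part of BC049352 and that of Il10rb holds most of Ifnar2, a chain of the type I interferon receptor.

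Over the 17 comparisons with Ctrl, 239 of the 476 tests of Il10 peaks were called (50.2%), all of them higher. Il10rb had 87 calls in 255 tests (34.1%), again all higher. Il10ra had 78 calls in 357 tests (21.8%), 55 higher and 23 lower. Over all tested peaks the share was 25.2%. The Il10 share was thus above that of all peaks and the Il10ra share below it. Here and below, shares over all peaks count calls in either direction. Over these 17 comparisons 32.5% of all tested peaks were called only higher, 31.6% only lower, 2.46% in both directions and 33.4% never. Under total-count scaling, which moved the median log2 change of all peaks in a comparison with Ctrl to between -0.04 and 0.45, the Il10ra calls were 99 higher and 12 lower. Fitted changes below are on the log2 scale under TMM scaling, where that median lay between -0.04 and 0.04.

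**Figure D1:**
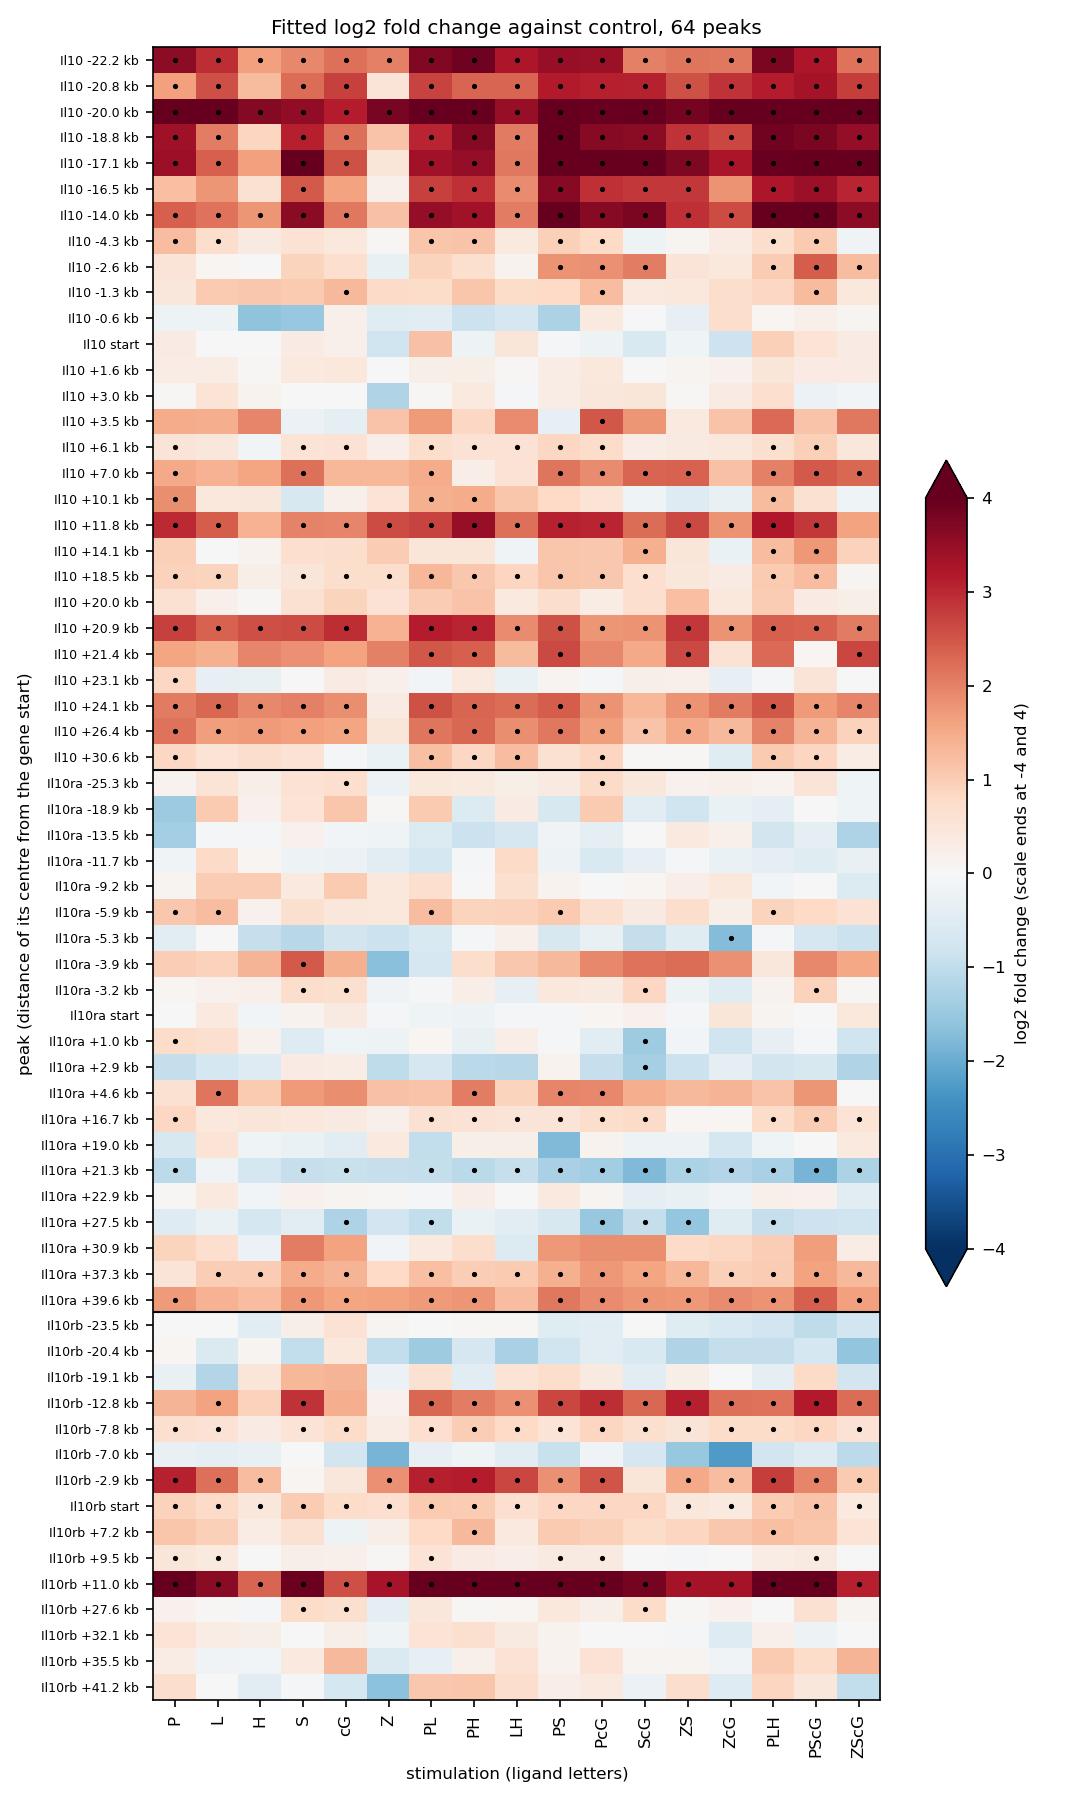
Fitted log2 fold change against Ctrl of the 64 peaks (rows, ordered along each gene from before its start to beyond its end) in the 17 stimulations (columns). Colour runs from -4 (blue) to 4 (red) and dots mark calls. The rows from -22.2 to -14.0 kb of Il10 and the +11.0 kb row of Il10rb are mostly red, and the rows at the Il10 and Il10ra starts carry no dot.

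Among the single ligands, PAM opened the most Il10 peaks. It raised 17 of the 28, where 20.5% of all tested peaks changed. LPS raised 12 (22.3% of all peaks), SeV 14 (27.9%), cG 13 (23.3%), HMW 6 (10.7%) and Z 4 (5.91%). The median fitted change of the 28 peaks was 1.37 in PAM, 1.23 in LPS, 0.96 in SeV, 1.11 in cG, 0.78 in HMW and 0.53 in Z. Every pair with PAM raised 17 or more Il10 peaks: 18 in PL (27.3% of all peaks), 17 in PH (26.4%), 17 in PS (33.4%) and 19 in PcG (33%). The pairs without PAM raised fewer, with 14 in LH (21.8%), 14 in ScG (27.7%), 13 in ZS (28.3%) and 10 in ZcG (21.6%). Outside the mitochondrial peak, ScG, ZS and ZcG held 10161141 to 11670203 counts per library, and PH, PS and PcG 13984832 to 21985891. PL held 12988823 and 9593847, and LH 15173224 and 12444578. The part of this depth in the number of calls was not tested. Of the triplets, PLH and PScG each raised 19 (29.7% and 37.1%) and ZScG 13 (32.3%). No Il10 peak was called lower in any of these 17 comparisons. DESeq2 also called 0 lower, and 1 test was below an unadjusted p of 0.05 in that direction. Calls were not all higher at Il10 with replicate 1 left out, nor at Il10rb with replicate 2 left out.

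The summed level over all 28 Il10 peaks gave the same picture in single libraries. It was 56.4 and 55.0 CPM in the 2 Ctrl libraries, 127 and 132 in PAM, 103 and 104 in LPS, 101 and 105 in SeV, 98.5 and 99.3 in cG, 80.3 and 77.2 in HMW and 76.1 and 76.6 in Z. The highest mean, 145 CPM in PScG, was 2.61 times that of Ctrl. All 34 stimulated libraries lay above both Ctrl libraries. At Il10rb the mean sum was 1.19 (HMW) to 1.98 (PL) times that of Ctrl, and at Il10ra 0.957 (Z) to 1.34 (LPS) times.

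Among the large changes at Il10 were those in 7 peaks from -22.2 to -14.0 kb, before the gene. This group of 7 was set apart after its values were seen. Their summed level was 2.08 and 3.76 CPM in the Ctrl libraries. PAM brought it to 24.8 and 27.9 CPM (9.03 times the Ctrl mean), LPS to 19.8 and 18.6 (6.57 times), SeV to 19.9 and 19.9 (6.81 times) and cG to 15.8 and 13.5 (5.03 times). HMW and Z were lowest, at 10.0 and 7.59 CPM and at 9.18 and 8.92. Pairs of PAM with another ligand reached 34.6 and 32.0 CPM in PL, 38.6 and 33.5 in PH, 38.7 and 38.6 in PS and 35.5 and 31.3 in PcG. The triplet PLH was highest with 39.3 and 41.5 CPM, 13.8 times the Ctrl mean. Both libraries of every stimulated group were above both Ctrl libraries. All 7 peaks were called higher in SeV, in the 7 pairs other than ZcG and in the 3 triplets. PAM, LPS, cG and ZcG raised 6, HMW 3 and Z 2.

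The strongest of the 7 was the -22.2 kb peak (chr1:130997248-130998085, between genes). It held 9 and 18 counts in the Ctrl libraries, and 183 and 261 in PAM. In CPM these are 0.983 and 1.74 against 14.0 and 18.9, a fitted log2 change of 3.56 ± 0.27 (SE, adjusted p = 3.8e-26). LPS gave 10.6 and 10.8 CPM (log2 2.95 ± 0.28). The other 4 single ligands reached 3.19 to 6.81 CPM, with log2 changes of 1.64 ± 0.32 in HMW, 1.93 ± 0.31 in SeV, 2.20 ± 0.30 in cG and 2.01 ± 0.32 in Z. PH was highest at 19.9 and 20.9 CPM (log2 3.88 ± 0.26). This peak was called higher in all 17 stimulations, in 17 with replicate 1 alone and in 16 with replicate 2 alone, where HMW lost its call. The groups fell into an upper set of PAM, LPS and every combination with either, at 10.6 to 20.9 CPM per library, and a lower set of the remaining 8 stimulations, at 3.19 to 7.60 CPM. No library of one set overlapped the other.

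The neighbouring -20.0 kb peak (chr1:130999651-131000022) was called higher in all 17 stimulations from very few reads. Ctrl held 1 and 0 counts, and the stimulated groups 14 (cG and Z) to 63 (PS) summed over 2 libraries. PL, the highest in CPM at 2.23 and 1.73, had 39.5 times the Ctrl rate, with an exact binomial 95% interval of 6.75 to 1590 that covers counting error only. DESeq2 called 12 of the 17. Replicate 1 alone gave 5 calls and replicate 2 alone 12.

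At 3 of the other peaks of the group, -17.1, -16.5 and -14.0 kb, SeV had the highest mean of the single ligands. The -17.1 kb peak (named after its values were seen, chr1:131002467-131002944) was at 0.218 and 0.193 CPM in Ctrl and highest among single ligands in SeV, at 3.53 and 3.38 CPM (log2 4.01 ± 0.61, adjusted p = 2.05e-08). PAM gave 2.67 and 1.88 CPM and LPS 0.636 and 1.51. Z gave 0.525 and 0.105 CPM and was not called (adjusted p = 0.85). The -14.0 kb peak (also named after its values were seen) was likewise higher in SeV, at 4.51 and 4.43 CPM (log2 3.60 ± 0.51), than in PAM at 1.91 and 1.95 CPM (log2 2.39 ± 0.57). PS reached 6.71 and 5.09 CPM there, and PS was above PAM by 1.60 ± 0.34 (adjusted p = 0.000128). Single ligands were not tested against each other. At -16.5 kb SeV (2.22 and 1.23 CPM) overlapped LPS (0.424 and 1.62) and cG (1.43 and 0.501). At -18.8 kb PAM (3.06 and 2.46 CPM) and SeV (1.57 and 3.01) overlapped. Over the 18 group means, the profiles of the 7 peaks correlated with Pearson r of 0.55 to 0.951 (median 0.793 over 21 pairs). These values are a description, since the peaks share their libraries and Ctrl.

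**Figure D2:**
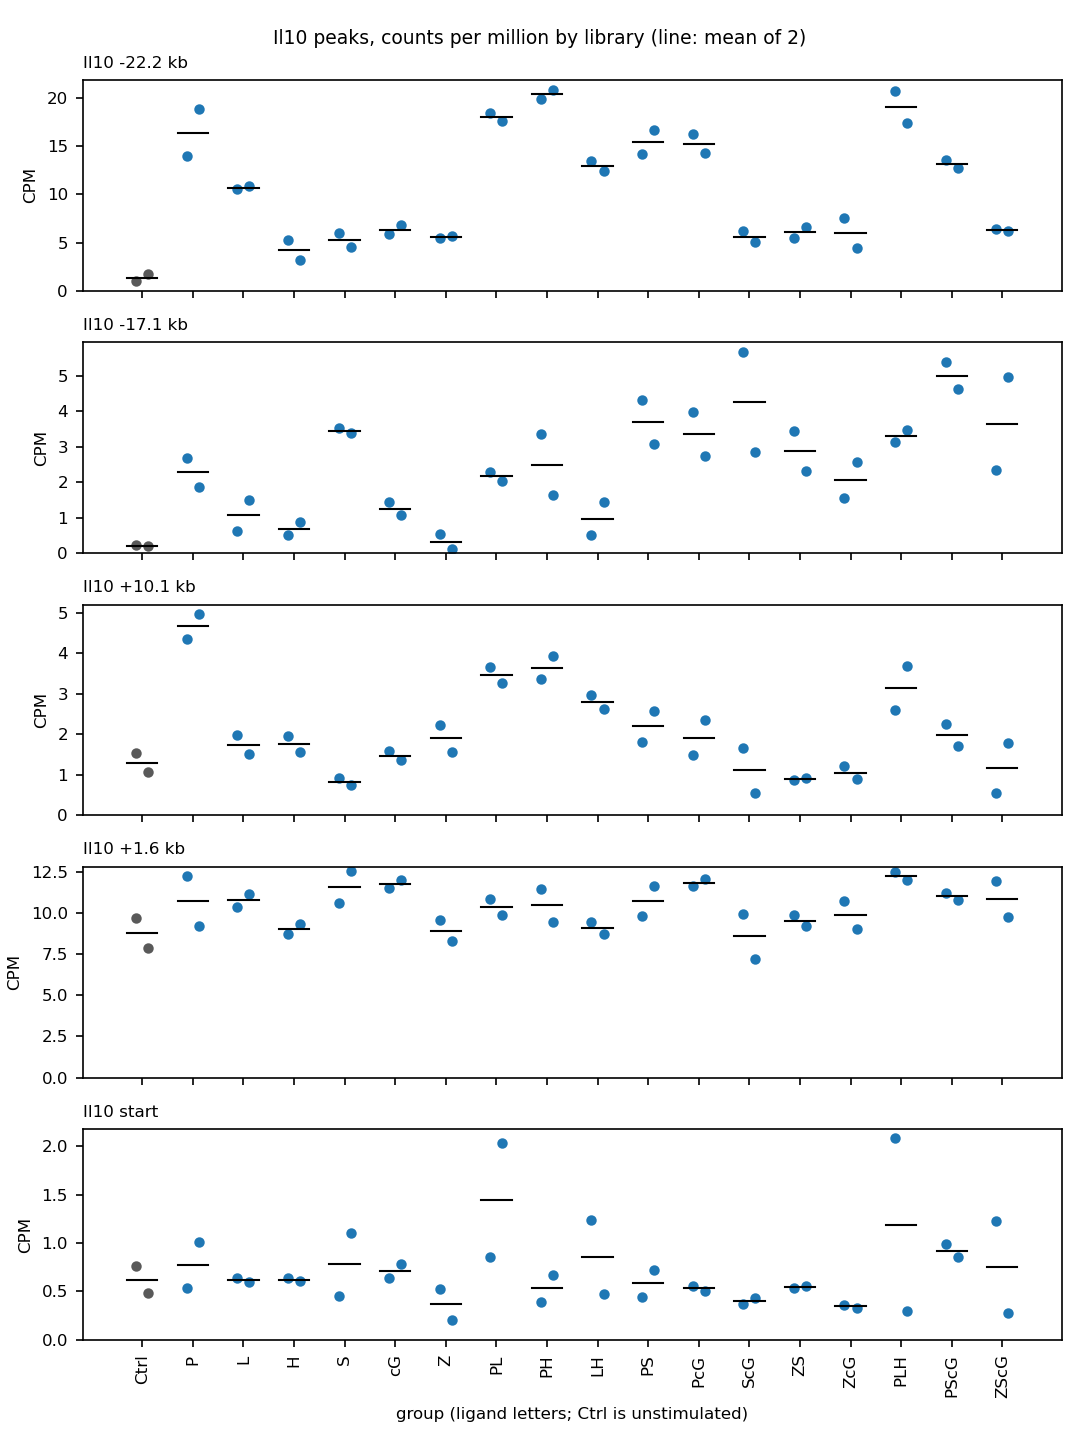
CPM of 5 Il10 peaks in each of the 36 libraries, by group. Points are libraries and lines the mean of 2. At -22.2 kb the groups with PAM or LPS stand above 10 CPM, and at -17.1 kb SeV is the highest single ligand. At +10.1 kb PAM alone is highest. The +1.6 kb peak overlaps Ctrl in 8 of 17 groups and lies above it in 9, and the start peak overlaps Ctrl in 13.

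At the gene itself little changed. The peak over the Il10 start (chr1:131019713-131019951) was small, 0.701 CPM on average, with 0.765 and 0.482 CPM in Ctrl, 0.535 and 1.01 in PAM and 0.439 and 0.727 in PS. It was called in 0 of 17 stimulations by edgeR, in 0 at an unadjusted p under 0.05 and in 0 by DESeq2. Its fitted changes ran from -0.81 ± 0.91 (ZcG) to 1.18 ± 0.72 (PL), so a change of that size was not detectable at this depth. No neighbouring pair of groups in the order of its levels was separated beyond the spread of their libraries. The +1.6 kb peak in the gene body (chr1:131020887-131022000) was larger, at 7.91 and 9.72 CPM in Ctrl and 7.21 to 12.6 CPM in the stimulated libraries. edgeR called it in 0 stimulations, with 4 above Ctrl at an unadjusted p under 0.05, and DESeq2 in 1. Its largest fitted change was 0.48 ± 0.20 in PLH (adjusted p = 0.0514). Total-count scaling, which moves the median peak upward, called it higher in 10. The +3.0 kb peak in the body was called in 0 by either tool, with 1 lower at an unadjusted p under 0.05, and ran from -1.19 ± 0.59 (Z) to 0.68 ± 0.46 (PLH). The +3.5 kb peak was called once, in PcG, from 32 counts against 3 in Ctrl, a ratio of 5.90 with an interval of 1.85 to 30.1. DESeq2 called it in 0.

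Closer to the start, the -4.3 kb peak (chr1:131015008-131016085, named after its values were seen) was called in 8 stimulations. It was at 6.55 and 3.86 CPM in Ctrl and 13.4 and 10.9 in PAM (log2 1.24 ± 0.23, adjusted p = 9.63e-06). LPS was the only other single ligand called, at 8.05 and 8.79 CPM (0.71 ± 0.24), and the other 6 calls were PL, PH, PS, PcG, PLH and PScG. The -2.6 kb peak, also named after its values were seen, was called in the 6 combinations PS, PcG, ScG, PLH, PScG and ZScG. The single ligands were not called there, with adjusted p from 0.0891 (SeV) to 0.992 (HMW) in edgeR. It was highest in PScG, at 7.54 and 7.89 CPM against 1.97 and 0.965 in Ctrl (log2 2.41 ± 0.38).

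Beyond the gene, 5 of the 13 downstream peaks were called in 13 or more stimulations. The +11.8 and +24.1 kb peaks were called in 15, +20.9 and +26.4 kb in 16 and +18.5 kb in 13. Some of these changes were as large as those upstream. They ran from 1.41 ± 0.65 (HMW) to 3.47 ± 0.53 (PH) at +11.8 kb. At +20.9 kb they ran from 1.38 ± 0.73 (Z) to 3.14 ± 0.58 (PL). Ctrl held 7 counts at each of these 2 peaks, which were named after their values were seen. The +26.4 kb peak (chr1:131045143-131047352, between Il10 and Mapkapk2) was at 1.86 and 3.57 CPM in Ctrl and 11.3 and 13.4 in PAM (log2 2.17 ± 0.25, adjusted p = 3.14e-13). HMW raised it to 9.79 and 8.28 CPM (1.72 ± 0.26), which overlapped LPS (7.42 and 10.0) and lay below both PAM libraries. Z, at 3.41 and 4.20 CPM, was the only stimulation not called (adjusted p = 0.418). Replicate 1 alone gave 16 calls and replicate 2 alone 14. In the order of its levels, 5 of the 17 gaps between neighbouring groups exceeded the spread of their libraries.

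Another pair of downstream peaks was higher with PAM than with its combinations with SeV or cG. They were named after their values were seen. The +10.1 kb peak (chr1:131029659-131030181) was at 1.53 and 1.06 CPM in Ctrl and 4.36 and 4.98 in PAM (log2 1.85 ± 0.43, adjusted p = 0.000399). It was also called in PL, PH and PLH. PS, at 1.82 and 2.58 CPM, was below PAM by 1.06 (log2 -1.06 ± 0.37, adjusted p = 0.0281), and PcG, at 1.48 and 2.36 CPM, was below it by 1.29 (log2 -1.29 ± 0.38, adjusted p = 0.00934). PS was in turn above SeV, at 0.916 and 0.738 CPM, by 1.42 ± 0.44. The +23.1 kb peak was called against Ctrl in PAM alone (0.83 ± 0.29) and was lower than PAM in PL (-0.95 ± 0.29), PS (-0.72 ± 0.27) and PcG (-0.92 ± 0.27).

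**Figure D3:**
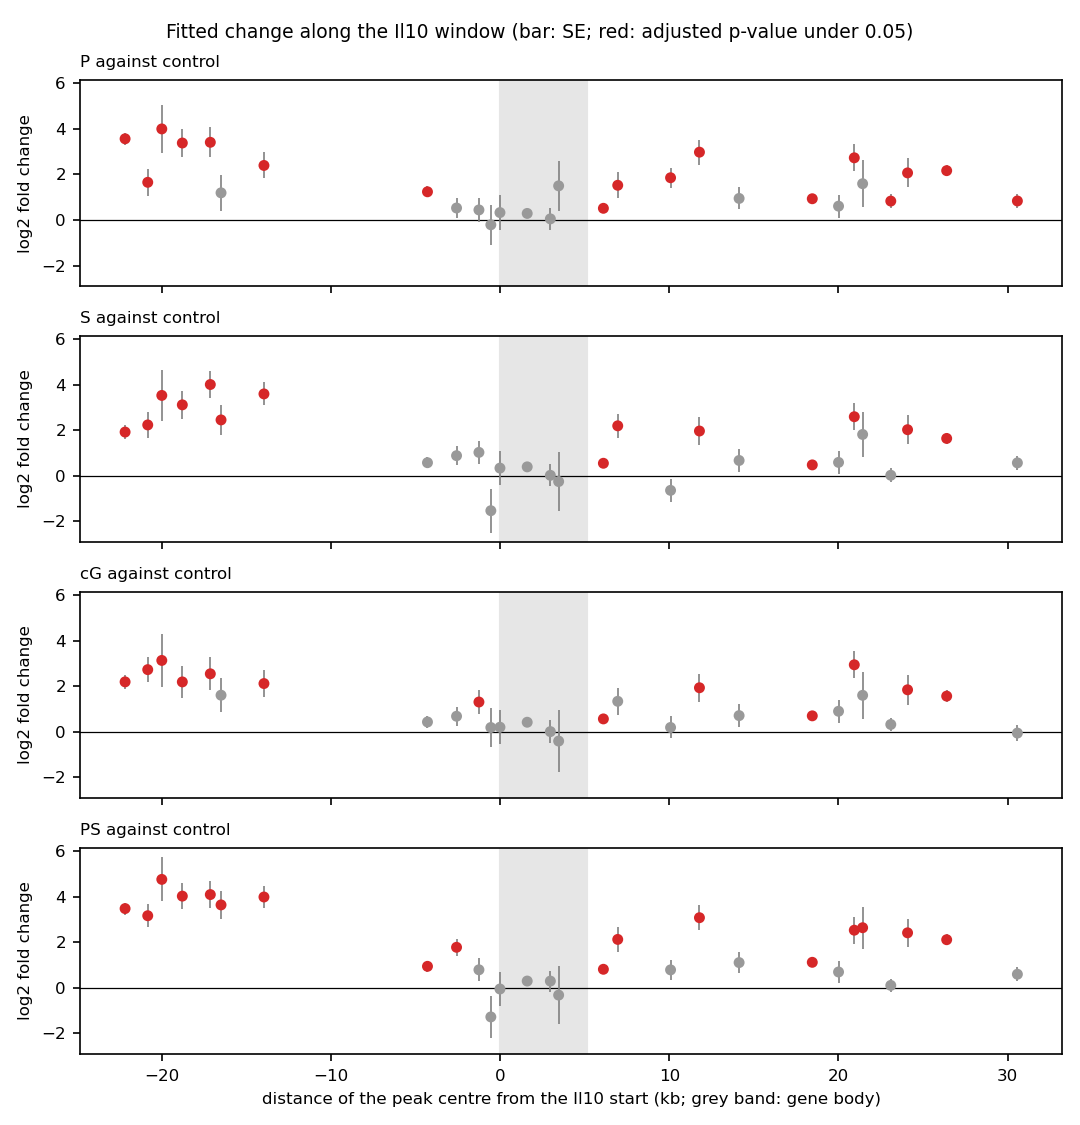
Fitted log2 fold change against Ctrl of the 28 Il10 peaks (vertical axis, bars are SE) by distance of the peak centre from the Il10 start in kb (horizontal axis), for PAM, SeV, cG and PS. Red points are called and the grey band is the gene body. The median of the 7 points from -22.2 to -14.0 kb is 3.38 in PAM, 3.12 in SeV, 2.20 in cG and 3.99 in PS, and the points over the start and body are grey.

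Combining ligands was tested directly, by setting each pair or triplet against its parts. Over these 25 comparisons 62 of 700 tests of Il10 peaks were called (8.86%), 56 higher and 6 lower, against 4.55% of tests over all peaks. Under total-count scaling the split was 55 higher and 19 lower. Of the 56, 35 lay among the 7 peaks from -22.2 to -14.0 kb. Adding PAM to HMW moved the most: 10 Il10 peaks rose in PH against HMW, where 7.56% of all peaks changed, and the -22.2 kb peak rose by 2.23 ± 0.20 (adjusted p = 3.41e-19). The reverse, adding HMW to PAM, raised 1 Il10 peak, at -16.5 kb (2.68% of all peaks). Adding LPS to HMW raised 3 (3.78%), with the -22.2 kb peak up by 1.58 ± 0.21, and adding HMW to LPS raised 0 (0.0603%).

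With SeV or cG added to PAM, Il10 peaks were called at a share not far above that of all peaks, and in both directions. In PS against PAM 4 Il10 peaks rose and 2 fell (18.1% of all peaks changed), and in PcG against PAM 4 rose and 2 fell (14.8%). The risers were the same in both comparisons, at -20.8, -16.5, -14.0 and -2.6 kb, and the fallers were those at +10.1 and +23.1 kb. Both comparisons share the PAM libraries. Adding PAM to SeV raised 3 (2.94%), among them the -22.2 kb peak by 1.56 ± 0.19, and adding PAM to cG raised 7 (9.11%), with the -22.2 kb peak up by 1.27 ± 0.19. PL raised 1 peak over PAM, at -14.0 kb, and lowered 1, at +23.1 kb (8.47%), and it raised 2 over LPS (1.13%).

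Among the pairs without PAM or LPS, ScG raised 4 Il10 peaks over cG (4.94%) and 0 over SeV (0.581%). ZS raised 7 over Z (15.2%), among them the -17.1 kb peak by 3.24 ± 0.63, and 0 over SeV (2.52%). ZcG raised 3 over Z (9.08%) and 0 over cG (2.87%). The mitochondrial share also differed between ScG and its parts, between ZcG and cG, and between ZS and Z, and its part was not tested. It differed between PScG and ScG and between ZScG and ZS as well. Against Z, the ZcG comparison stayed within the 5 groups of high mitochondrial share.

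As the third ligand of a triplet, only PAM was called to raise Il10 peaks over the pair. In the comparisons without a raised Il10 peak, 0% to 2.79% of all peaks changed. PLH raised 3 Il10 peaks over LH (0.539% of all peaks), at -14.0 kb by 2.00 ± 0.35, at -17.1 kb by 1.82 ± 0.43 and at -18.8 kb by 1.77 ± 0.42. It raised 0 over PL (0%) or PH (0.248%). PScG raised 4 over ScG (4.54%), with the -22.2 kb peak up by 1.21 ± 0.21, and 0 over PcG (0.411%). Against PS it lowered 1, at +26.4 kb by 0.76 (log2 -0.76 ± 0.20, 0.602%). ZScG raised 0 over ZS (0.0586%), ZcG (2.79%) or ScG (0.774%). For the 8 comparisons without a call at any of the 64 peaks (LH against LPS, ScG against SeV, PLH against PL and PH, PScG against PcG, and ZScG against its 3 pairs), 2 to 10 peaks were below an unadjusted p of 0.05 in edgeR, and DESeq2 called 0.

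Departures from additivity on the log2 scale were tested as the pair value minus both single values plus Ctrl. A negative value means that the log2 change of the pair was less than the sum of the log2 changes of its parts. It does not mean that the rises in CPM were less than additive. Of 224 such tests of Il10 peaks, 33 were called (14.7%), all negative, against 5.18% of tests over all peaks. No positive one passed an unadjusted p of 0.05, and DESeq2 called 27, again all negative. The -22.2 kb peak was negative in all 8 pairs. There PAM alone and LPS alone were 3.56 and 2.95 above Ctrl and the pair PL 3.70, which left an interaction of -2.81 ± 0.34 (adjusted p = 2.03e-11). PcG followed with -2.30 ± 0.35, ZcG with -2.10 ± 0.40, ScG with -2.09 ± 0.39, PS with -2.01 ± 0.36, ZS with -1.80 ± 0.40, LH with -1.37 ± 0.37 and PH with -1.33 ± 0.37. The PH value was not called with either replicate alone. The +26.4 kb peak was negative in 6 pairs, from -1.54 ± 0.33 in LH to -2.08 ± 0.35 in ScG. All these tests use the Ctrl libraries, whose counts at the upstream peaks were between 0 and 18. Ctrl is also on the high side of the step in mitochondrial share, so the step enters these terms. In ScG, the pair and Ctrl were on the high side and both single ligands on the low side. In ZS, by group means, the terms added and those subtracted each held 1 group of either side. The part of the step in the interactions was not tested.

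Counting the 3 loci together, the interaction was called at 7 of 64 peaks in PL (6.77% of all peaks), 4 in PH (1.55%), 6 in LH (4.88%), 8 in PS (4.58%), 5 in PcG (3.27%), 15 in ScG (14.4%), 3 in ZS (3.43%) and 5 in ZcG (2.49%). The ScG count thus comes with the highest share over all peaks. In the 3 triplet interactions, which test what the pairs leave over, 6 of 84 Il10 tests were called, all positive (7.14%, against 1.56% over all peaks). PLH had 1 call among the 64 peaks (0.783% of all peaks), PScG 6 (2%) and ZScG 2 (1.89%). The -22.2 kb peak was positive in PScG (1.96 ± 0.47) and ZScG (2.04 ± 0.53).

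Il10ra, the ligand-binding chain, showed the fewest changes. Its start peak (chr9:45268738-45269393) was at 4.92 and 5.98 CPM in Ctrl and between 4.15 and 10.0 CPM in the stimulated libraries. edgeR called it in 0 of 17 stimulations, with 0 at an unadjusted p under 0.05, and DESeq2 in 0. Fitted changes ran from -0.21 ± 0.27 (PH) to 0.48 ± 0.27 (ZcG). The highest library, ZcG replicate 1 at 10.0 CPM, was paired with 5.34 CPM in replicate 2. Total-count scaling called it higher in 2.

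The peaks in the Il10ra body differed from the start. The +1.0 kb peak (chr9:45267865-45268530) was at 4.70 and 4.24 CPM in Ctrl, 7.41 and 7.58 in PAM and 1.67 and 1.64 in ScG. It was called higher in PAM (0.75 ± 0.29, adjusted p = 0.0485) and lower in ScG (-1.42 ± 0.36, adjusted p = 0.00093). With replicate 2 alone neither was called, and with replicate 1 alone PAM was not. Upper-quartile scaling did not call the PAM rise either. Relative to PAM it was lower in PH by 1.05 (log2 -1.05 ± 0.28), in PS by 0.82 (log2 -0.82 ± 0.27) and in PcG by 1.17 (log2 -1.17 ± 0.28, adjusted p = 0.000931). The +2.9 kb peak (chr9:45266061-45266514) was called lower in ScG alone, at 1.30 and 0.547 CPM against 1.86 and 2.89 (-1.33 ± 0.52, adjusted p = 0.044), a call not made by DESeq2, by total-count or upper-quartile scaling, or with replicate 1 alone. The +4.6 kb peak (chr9:45264420-45264710) was called higher in LPS, PH, PS and PcG from 6 and 0 counts in Ctrl, and DESeq2 called it in 0 stimulations. Replicate 2 alone gave 9 calls, replicate 1 alone 0 and total-count scaling 7.

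Beyond the Il10ra end, in the body of the neighbouring gene BC049352, peaks moved in both directions. They are closer to that gene than to the Il10ra start, and the data do not say which gene they serve. The +37.3 kb peak (chr9:45231617-45232077) was at 2.62 and 2.60 CPM in Ctrl and 6.93 and 7.75 in SeV (log2 1.49 ± 0.28, adjusted p = 6.04e-06). It was called higher in 15 stimulations and highest in PcG at 7.95 and 9.63 CPM (1.74 ± 0.28). PAM, at 3.97 and 3.54 CPM, was not called (adjusted p = 0.236), and PS and PcG were above PAM by 0.90 ± 0.25 and 1.22 ± 0.25. The groups did not overlap Ctrl in any of the 17 cases. With replicate 1 alone 8 calls were made and with replicate 2 alone 9. The +39.6 kb peak (chr9:45229358-45229756) was called higher in 13, from 0.874 and 0.289 CPM in Ctrl to 3.05 and 2.99 in PScG (2.39 ± 0.54). Replicate 1 alone gave 0 calls there and replicate 2 alone 10.

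In the opposite direction, the +21.3 kb peak (chr9:45247532-45248188) fell in 14 stimulations. Ctrl had 5.79 and 6.85 CPM, PScG 1.79 and 1.71 (log2 -1.85 ± 0.35, adjusted p = 5.1e-06) and ScG 2.05 and 1.64 (-1.77 ± 0.36). LPS, at 4.88 and 6.63 CPM, was not called (-0.13 ± 0.30), and neither were HMW nor Z. Total-count scaling left 8 of the 14 calls, losing PAM, SeV, cG, PL, PH and LH, and either replicate alone left 6. This peak and +27.5 kb (6 calls, named after its values were seen) gave 20 of the 23 lower calls at Il10ra. Before the start, the -3.2 kb peak (named after its values were seen) was higher in SeV, cG, ScG and PScG, and it was lower in ZS than in SeV (log2 -0.91 ± 0.25) and in ZcG than in cG (-1.14 ± 0.27). Each of the other 3 lower calls was single, at +1.0 and +2.9 kb in ScG and at -5.3 kb in ZcG.

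**Figure D4:**
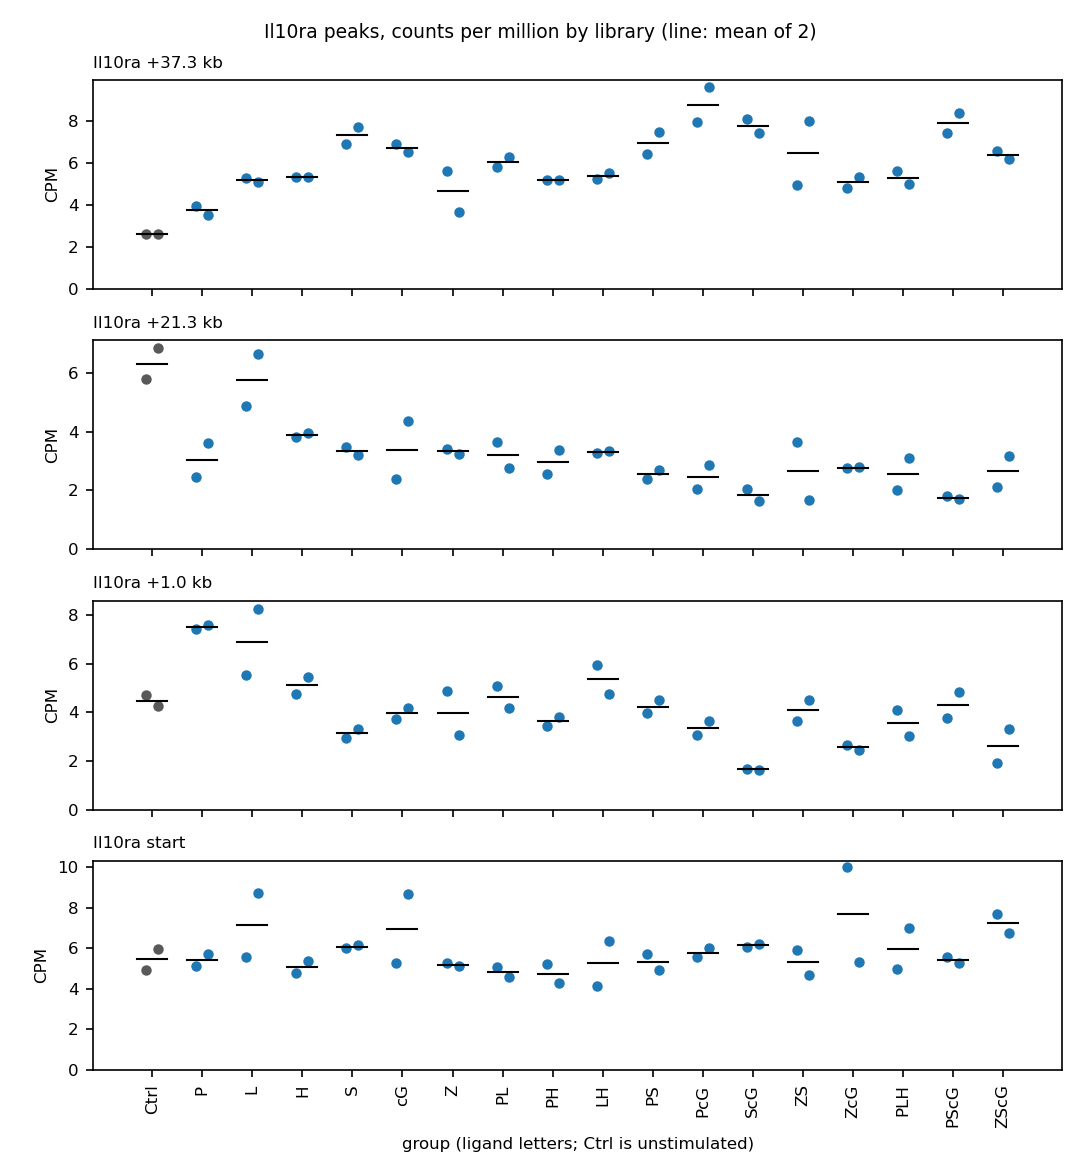
CPM of 4 Il10ra peaks in each of the 36 libraries, by group. Points are libraries and lines the mean of 2. The +37.3 kb peak lies above Ctrl in every group, the +21.3 kb peak lies lower in most, the +1.0 kb peak is highest in PAM and lowest in ScG, and the start peak overlaps Ctrl in 14 of 17 groups.

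Over the 25 comparisons of combinations with their parts, Il10ra had 14 calls in 525 tests (2.67%, against 4.55% over all peaks). The calls were 6 higher and 8 lower. Under total-count scaling these were 9 and 21, and with DESeq2 4 and 9. Of the 168 pair interactions at Il10ra 3 were called (1.79%, against 5.18% over all peaks), all negative. They were PL at +1.0 kb (-1.32 ± 0.40) and ScG at +37.3 kb (-1.28 ± 0.37) and +2.9 kb (-1.97 ± 0.67). No triplet interaction was called by edgeR (against 1.56% over all peaks), with 5 at an unadjusted p under 0.05, and DESeq2 called 1. With either replicate alone 0 pair interactions were called, and with total-count scaling 27.

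Il10rb, the shared receptor chain, had the only start peak of the 3 genes that opened. The peak (chr16:91405523-91407305) spans the Il10rb start and the end of Ifnar2. It was at 17.5 and 15.3 CPM in Ctrl and at 19.3 to 38.5 CPM in the stimulated libraries, none of which overlapped Ctrl. It was called higher in all 17 stimulations. Fitted changes ran from 0.40 ± 0.14 (ZScG) to 1.14 ± 0.13 in PScG (33.4 and 38.5 CPM, adjusted p = 1.23e-13). Among single ligands SeV was highest, at 33.4 and 33.1 CPM (1.02 ± 0.13), then PAM at 30.9 and 31.9 (0.94 ± 0.13), LPS at 28.2 and 27.7 (0.77 ± 0.13), cG at 27.7 and 27.0 (0.74 ± 0.13), Z at 26.6 and 25.2 (0.66 ± 0.14) and HMW at 20.9 and 24.1 (0.45 ± 0.14). Replicate 1 alone gave 12 calls, losing HMW, Z, ZS, ZcG and ZScG, and replicate 2 alone gave 17. Total-count scaling lost ZcG.

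At this peak no pair was called above the higher of its single ligands. The pair interaction was negative in 7 of 8 pairs, from -0.56 ± 0.18 in LH to -1.24 ± 0.19 in ZS (adjusted p = 2.76e-07). PH was the pair not called, and it was above HMW by 0.56 ± 0.12. ZS, at 22.5 and 22.1 CPM, was below SeV by 0.58 (log2 -0.58 ± 0.13, adjusted p = 0.0016). By mean share both groups lie on the lower side of the mitochondrial step, but ZS replicate 1 was at 58.1%, against 47.1% and 48.7% in SeV. The part of this difference was not tested. With either replicate alone this fall was not called. The triplet interaction was positive in PScG (1.34 ± 0.25) and ZScG (1.16 ± 0.27).

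The largest relative change at any receptor peak was at +11.0 kb, within the Il10rb gene (chr16:91416819-91417467). Ctrl held 3 and 3 counts, or 0.328 and 0.289 CPM. PAM had 6.95 and 9.46 CPM (log2 4.70 ± 0.43, adjusted p = 2.62e-19), SeV 4.58 and 5.04 (3.93 ± 0.46), LPS 4.03 and 3.72 (3.61 ± 0.48), Z 3.94 and 2.41 (3.30 ± 0.52), cG 1.75 and 2.01 (2.58 ± 0.55) and HMW 1.52 and 1.64 (2.32 ± 0.56). The highest group, PLH, reached 11.7 and 11.3 CPM, 37.5 times the Ctrl rate with a counting interval of 17 to 103. All 17 stimulations were called and none overlapped Ctrl. With either replicate alone 16 were called, losing HMW. The same peak rose with the second ligand in PL over LPS (1.42 ± 0.25), PH over HMW (2.51 ± 0.29), LH over HMW (1.78 ± 0.31), PcG over cG (2.12 ± 0.28) and ScG over cG (1.26 ± 0.32). Its pair interaction was negative in 7 of 8 pairs, from -2.19 ± 0.62 in PH to -3.90 ± 0.61 in ZS.

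A peak before the start separated the ligands most sharply. The -2.9 kb peak (chr16:91402851-91403745, within the body of Ifnar2) was at 1.09 and 3.09 CPM in Ctrl. It rose to 16.4 and 20.1 CPM with PAM (log2 3.09 ± 0.26, adjusted p = 1.24e-21), to 11.9 and 8.09 with LPS (2.20 ± 0.27), to 10.1 and 5.35 with Z (1.82 ± 0.30) and to 4.96 and 5.09 with HMW (1.23 ± 0.30). SeV gave 1.83 and 2.71 CPM (0.09 ± 0.33, adjusted p = 0.876), cG 2.94 and 2.94 (0.46 ± 0.33) and ScG 3.63 and 2.30 (0.49 ± 0.34), and these 3 were not called. SeV and cG also lowered the level reached with PAM. PS, at 6.96 and 8.28 CPM, was below PAM by 1.25 (log2 -1.25 ± 0.20, adjusted p = 1.47e-07) and above SeV by 1.75 ± 0.25. PcG, at 11.5 and 13.3 CPM, was below PAM by 0.57 (log2 -0.57 ± 0.19, adjusted p = 0.0307), a fall not called by DESeq2, by total-count or upper-quartile scaling or by either replicate alone, and above cG by 2.07 ± 0.24. PL and PH, at 16.6 to 20.5 CPM, overlapped PAM. In the order of levels, 7 of 17 neighbouring gaps exceeded the spread of the libraries. Against Ctrl, replicate 2 alone gave 10 calls and replicate 1 alone 15.

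The -12.8 kb peak, also within Ifnar2 (chr16:91393172-91393582), ranked SeV first among the single ligands. SeV raised it from 0.437 and 0.386 CPM to 3.66 and 2.52 (log2 2.88 ± 0.55, adjusted p = 8.98e-06). LPS was called at 1.20 and 1.35 CPM (1.62 ± 0.61), whereas PAM, at 0.764 and 1.37 CPM, was not (1.37 ± 0.64, adjusted p = 0.117). PS and PcG were above PAM by 1.29 ± 0.44 and 1.58 ± 0.44. It was called in 13 stimulations, in 9 with replicate 1 alone and in 5 with replicate 2 alone. The -7.8 kb peak (chr16:91397798-91398858) was already open in Ctrl, at 11.1 and 13.0 CPM, and rose modestly in 15 stimulations, most in PH at 21.9 and 26.2 CPM (0.99 ± 0.15). Replicate 1 alone gave 13 calls and replicate 2 alone 6. In the body, the +9.5 kb peak (chr16:91415137-91416264) had the highest accessibility per length of the 64, at 22.3 CPM per kb. It changed by 0.54 ± 0.14 at most (PL), with 6 calls, of which replicate 1 alone left 0 and replicate 2 alone 2. The +7.2 kb peak (chr16:91413067-91413723) was called in PH and PLH, at 1.30 ± 0.45 and 1.20 ± 0.46. Either replicate alone gave 0 calls there and total-count scaling 7.

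**Figure D5:**
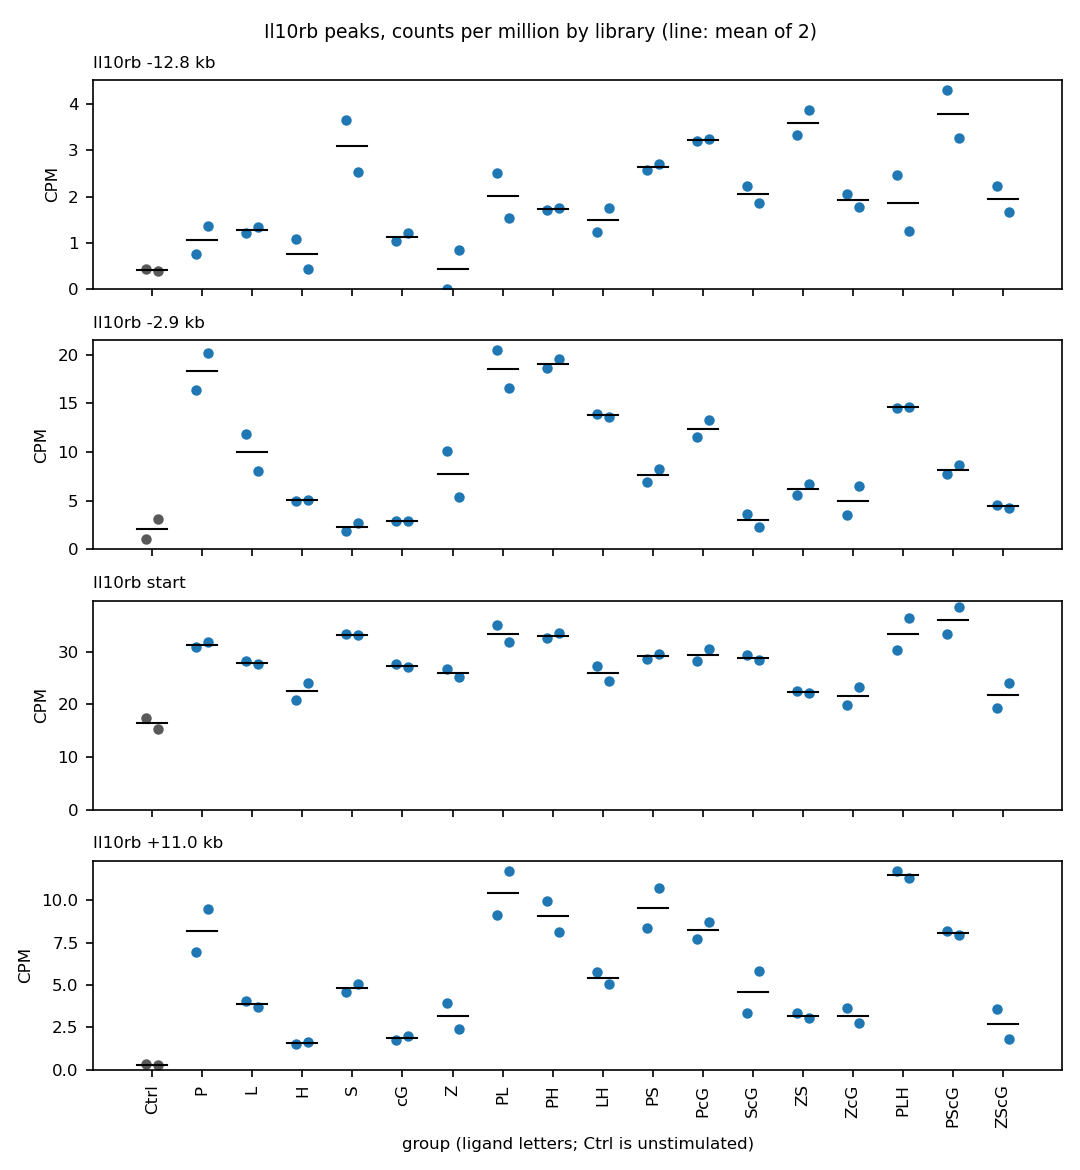
CPM of 4 Il10rb peaks in each of the 36 libraries, by group. Points are libraries and lines the mean of 2. At -12.8 kb SeV is the highest single ligand, at -2.9 kb SeV, cG and ScG stay near Ctrl while PAM is high, and at the start and +11.0 kb every group lies above Ctrl.

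Compared with their parts, Il10rb peaks were called in 28 of 375 tests (7.47%, against 4.55% over all peaks). The calls were 25 higher and 3 lower, or 28 and 12 under total-count scaling. Pair interactions were called in 17 of 120 tests (14.2%, against 5.18% over all peaks), all negative. Unadjusted, 2 positive ones had a p under 0.05, and DESeq2 called 0 positive. Across the receptor and ligand loci, the profile of the Il10 -22.2 kb peak over the 18 groups had r = 0.939 with Il10rb +11.0 kb, 0.875 with Il10rb -2.9 kb and 0.796 with the Il10rb start, but -0.24 with the Il10ra start and 0.387 with the Il10 start. These are descriptions over group means that share libraries.

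Genes whose start peak had the pattern most like that of each member start were sought among 12531 start peaks, over the 18 groups. For Il10rb they were Hpn (r = 0.912), Gm4606 (0.882), Il1rn (0.852), Gramd1a (0.842) and Cpd (0.836). For Il10ra they were Gtf3a (0.848), the shared start of Rpa1 and Smyd4 (0.817), Dtnb (0.811), Rufy1 (0.811) and Ssh2 (0.809). For Il10 they were Oscp1 (0.809), Wdr74 (0.792), Lrch4 (0.709), Efcab12 (0.704) and Cog2 (0.697). The Il10 and Il10ra starts carry no call against Ctrl. Hpn encodes a membrane serine protease, and Il1rn the IL-1 receptor antagonist, a known target of IL-10.

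The promoters of these 2 genes are shown because their peaks followed the Il10rb start most closely (Hpn) and belong to the IL-10 target list (Il1rn). Each is the 250 bases before the start from RefSeq (GRCm38.p6), 5′ to 3′ on the gene's strand: Hpn at chr7:31110998-31111247 on the minus strand and Il1rn at chr2:24345041-24345290 on the plus strand. Capitals mark matches to the motifs searched.
Hpn: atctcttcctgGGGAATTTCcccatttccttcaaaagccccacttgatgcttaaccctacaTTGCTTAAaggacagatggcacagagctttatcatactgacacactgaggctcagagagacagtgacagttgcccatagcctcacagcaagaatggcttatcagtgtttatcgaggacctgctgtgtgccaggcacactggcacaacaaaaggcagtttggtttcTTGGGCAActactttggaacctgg
Il1rn: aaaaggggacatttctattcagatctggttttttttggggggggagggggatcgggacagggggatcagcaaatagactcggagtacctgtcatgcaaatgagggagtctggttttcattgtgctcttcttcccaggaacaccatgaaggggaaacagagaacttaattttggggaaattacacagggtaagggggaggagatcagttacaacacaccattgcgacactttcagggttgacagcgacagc
Hpn holds 1 match to the NF-kB motif GGGANTTTC, starting 239 bases before the start, and 2 to the C/EBP motif TTGCNNAA, starting 189 and 24 bases before it (the last on the opposite strand). Of 32851 promoter entries of the same length, 0.941% hold the first and 9.56% the second. Il1rn holds no match to any motif searched on either strand. The others were NF-kB GGGAATTCC (in 0.21% of entries) and GGGGATTCC (0.213%), AP-1 TGANTCA (6.75%), CRE TGACGTCA (1.55%) and its core TGACG (17.8%, which overlaps CRE), ISRE core GAAANNGAA (7.13%), GAS TTCNNNGAA (7.02%), PU.1 GAGGAA (23.3%), Sp1 GGGCGG (32.7%), E-box CACGTG (6.02%) and MARE core TGCTGAC (3.81%). A match describes letters only.

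In the signalling pathway and its targets, 19 of 20 listed genes had a peak at their start. Over the 17 comparisons with Ctrl, 7 genes were called only higher, 8 only lower, 1 in both directions and 3 never. Over all 13474 protein-coding genes with such a peak, 23.3% were called only higher, 48.3% only lower, 3.04% in both directions and 25.4% never. Those called higher include feedback inhibitors of cytokine signalling. Socs3 rose in all 17 stimulations, by 0.93 ± 0.13 (HMW) to 2.13 ± 0.12 (PScG), and Socs1 in all 17, by 0.41 ± 0.10 (PAM) to 1.06 ± 0.10 (cG). Il1rn rose in 16, up to 1.53 ± 0.18 in PL, and Sbno2, a co-regulator induced by IL-10, in 15, up to 0.84 ± 0.13 in PS. Zfp36, whose product destabilises cytokine mRNAs, rose in 7. Bcl3, an IκB family member, fell in 13 stimulations (down to -0.97 ± 0.15 in PLH), Tnip3 in 12, Hmox1, which degrades haem, in 11 and the mannose receptor gene Mrc1 in 11 (down to -2.61 ± 0.54 in PL). Of the signalling kinases Tyk2 fell in 6 and Jak1 in 3. Stat3 was not called, with fitted changes between -0.24 ± 0.10 (HMW) and 0.19 ± 0.10 (PScG). Several of these genes answer many signals besides IL-10, and the median change of the list was between -0.18 and 0.21 per comparison.

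Of the 30 listed regulators of Il10 transcription, all with a start peak, 12 were called only higher, 14 only lower and 4 never, to be read against the same shares over all genes. The median change of this list was between -0.21 and 0.13 per comparison. The AP-1 gene Junb rose in 14 stimulations (up to 0.71 ± 0.09 in ZS), the NF-κB gene Rela in 13 (up to 1.07 ± 0.14 in PScG), the phosphatase gene Dusp1 in 13 (up to 1.03 ± 0.11 in ZScG) and Rel in 9 (up to 0.44 ± 0.09 in ZcG). The kinase gene Gsk3b fell in 14 (down to -0.44 ± 0.08 in PcG), Irf4 in 12 (down to -1.13 ± 0.20 in PH), and Jun, Crem and Sik2 in 11 each. Bhlhe40, a repressor of Il10, fell in 10, and Maf, an activator of it, in 7 (down to -0.45 ± 0.12 in PScG). Mapkapk2, the downstream neighbour of Il10, was not called, with changes from -0.30 ± 0.12 (LH) to 0.21 ± 0.12 (PS). Of the 13 genes of the IL-10 family and its class of receptors, 7 had a start peak. Il19, Il20, Il24, Il22, Il22ra1 and Il22ra2 had none. Ifngr1, a chain of the interferon gamma receptor, fell in 11 stimulations (down to -0.71 ± 0.11 in PLH), Il20rb rose in 2, and Ifnar1, Ifnar2, Ifngr2, Ifnlr1 and Il20ra were not called.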

How the data were processed

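ATAC-seq was measured in 36 libraries (18 groups of 2, grouped by their titles). The authors deposited a table of raw read counts per peak for all libraries and the peak intervals. Per the submitters' processing notes the build is mm10 and the tools include Bowtie2 2.2.9, MACS2 1.4, bedtools and featureCounts, with no role or order. Pooling for peak calling, duplicate removal and a shift for the transposase are not given in the sources used here.

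The mitochondrial peak was left out, and edgeR's filterByExpr (minimum count 10) dropped 286 of the other peaks and left 119464. edgeR 4.0.16 (quasi-likelihood test, TMM scaling, R 4.3.3) was fitted to all 36 libraries with 1 coefficient per group, which leaves 18 residual degrees of freedom. P-values were Benjamini-Hochberg adjusted over all tested peaks within each of 53 comparisons. CPM use TMM-scaled library sizes, SE is the standard error of a log2 change, and like patterns use log2 CPM with a prior count of 2. The steps were tested on simulated data. Alternatives were DESeq2 1.42.0, other scalings, no filter, the mitochondrial peak kept, a replicate block, a 5 kb window and leaving out each replicate. Counting intervals and ratios cover counting error only.

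Peaks described library by library are those over the start or body of each member gene and the 3 others per gene with the most calls against Ctrl, with others marked as named after their values were seen. Gene coordinates and promoters are from RefSeq (GRCm38.p6), and no promoter entry was matched for the 3 member genes. Gene strands are from general knowledge. List genes use the highest peak within 1 kb of their start. One marker gene is not reported here. The members and lists were chosen with earlier results of these data known.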

Additional observations from a re-analysis of the deposited data

Results flagged for a closer look

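In all 11 tests of whether the effect of a ligand differed in the presence of another, at least 1 of the 64 peaks was called by edgeR's interaction term (Benjamini-Hochberg adjusted p under 0.05). A pair departed where its log2 change differed from the sum of the log2 changes of its parts. The called departures numbered 7 in PL (6.77% of all peaks), 4 in PH (1.55%), 6 in LH (4.88%) and 8 in PS (4.58%). They numbered 5 in PcG (3.27%), 15 in ScG (14.4%), 3 in ZS (3.43%) and 5 in ZcG (2.49%). Each of them was negative. The ScG departures included 10 Il10 peaks. Among the triplets, 1 peak was called in PLH (0.783% of all peaks), 6 in PScG (2%) and 2 in ZScG (1.89%), all positive. The Il10 -22.2 kb peak was among the called peaks in all 8 pairs and in PScG and ZScG.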

How the results depend on the processing

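No call on a peak described in the text reversed its direction under the alternatives run. Of 271 such calls, DESeq2 lost 12, total-count scaling 11, upper-quartile scaling 7, RLE scaling 2, the replicate block 2 (Il10ra +1.0 kb in PAM and Il10 +26.4 kb in PH against HMW), no filter 1 and keeping the mitochondrial peak 0. Leaving out replicate 1 lost 102 of 265 and replicate 2 lost 106, where the lone sample of a group is assumed to vary like the other groups. Calls against Ctrl without one replicate numbered 152 to 167 at Il10 (239 with both), 26 to 41 at Il10ra (78) and 56 to 66 at Il10rb (87), and a 5 kb window held 42, 22 and 56. Against the parts the ranges were 22 to 23 (62), 2 to 3 (14) and 14 to 16 (28), with 13 and 9 in the 5 kb window of Il10 and Il10ra and 30 at Il10ra under total-count scaling. Pair interactions numbered 13 to 20 (33), 0 to 0 (3) and 9 to 10 (17), with 6 in the 5 kb window of Il10, 5 at Il10ra with DESeq2, and 58, 27 and 33 under total-count scaling. Triplet interactions numbered 14 (6), 4 (0) and 8 (3) under total-count scaling, 1 at Il10ra with DESeq2 and 2 in the 5 kb window of Il10, and were not run without a replicate. A narrower window holds fewer peaks and a left-out replicate fewer samples, while the cause of the scaling differences was not tested. The replicate numbers do not pair the samples (r of deviations from -0.04 to 0.03 over 153 pairs of groups). With a replicate block the counts against Ctrl were 239, 78 and 87, against the parts 61, 14 and 28, and the interactions 34, 3 and 17 in pairs and 6, 0 and 3 in triplets. At peaks with under 10 Ctrl counts, depth limits the precision of every fold.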
